A study of Mus musculus with 9 samples.

Results

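The 92 genes described here are the cytosolic ribosomal protein genes of a mouse podocyte line. They were chosen by name from the 55385 genes of the deposited table: gene names that begin with Rpl, Rps or Rplp and a digit, or are Rpsa, with a protein-coding transcript listed, and without the Rps6k kinases. The table lists every transcript type of a gene, and for 18 of the 92 protein-coding was the only type listed. By name, 57 of the genes belong to the large subunit and 34 to the small subunit; the remaining one, Rps19bp1, encodes a protein that binds Rps19 and is not itself part of the ribosome. Of the 92 genes, 77 are the core genes (46 large subunit, 31 small subunit), 7 are named paralogs, and 7 carry a pseudogene or retrocopy name.

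The study profiled RNA of the MCP5 mouse podocyte line, labelled wild type, in 3 groups of 3 libraries. The groups were control cells (labelled blank), cells in high glucose at 50 mmol/L, and cells given advanced glycation end products (AGEs) at 400 µg/mL. Total RNA was isolated with TRIzol. No source used here gives the length of exposure, an osmotic control, a carrier control for the AGEs or the glucose of the control medium. The titles number the libraries 1 to 3 in each group without stating separate cultures, so the p-values measure spread among libraries that may be technical replicates.

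Library totals ran from 46284878 to 77242281 counts, the lowest in high glucose library 2. Among the podocyte markers, Wt1 and Ptpro were at or near 0; 7 markers were tested and 2 were called higher in high glucose. The summed level of 5 parietal epithelium markers was 415 to 433 TMM-scaled CPM (a count relative to its library's size) in control, 1299 to 1479 under high glucose, and 389 to 520 in AGEs. The list held Cldn1, Pax2, Pax8, Cd24a and Krt8, and 3 of the 5 were called higher in high glucose. The 6 tubule markers summed to 123 to 125, 355 to 396 and 121 to 158 CPM, with Slc34a1, Umod and Aqp2 at 0 throughout and the other 3 called higher in high glucose. Endothelial markers summed to at most 0.965 CPM in any library, and mesangial and fibroblast markers to 16.8 to 24.3 CPM. The 3 leukocyte markers summed to 20.4 to 23.3 CPM in control, 9.48 to 12.4 under high glucose and 9.51 to 21.3 with AGEs. Of them, 1 was called lower in high glucose than in control (log2 fold change -1.20), and 1 higher in AGEs than in high glucose. The other 2 were above 0 in high glucose against control and were not called, so the sum does not describe all 3. These marker shifts accompany every high glucose result that follows, and their part in it was not tested. In bulk RNA, fewer cells of a type and less of an RNA per cell cannot be told apart.

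The cytosolic ribosome translates messenger RNA into protein. Its small subunit binds and decodes the messenger RNA, and its large subunit joins the amino acids, and nearly every ribosomal protein is needed in a single copy per ribosome. Ribosomal protein messenger RNAs are abundant in dividing cells and begin with a run of pyrimidines, the terminal oligopyrimidine or TOP motif, through which mTOR and the RNA-binding protein Larp1 control their translation. In podocytes, terminally differentiated cells of the kidney filter, mTOR signalling is known to govern cell size.

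Of the 92 genes, 63 (54 of them core) had a promoter window in RefSeq (GRCm38.p6) with its start within 1000 bases of the gene's upstream end in the deposited table. A stretch from 60 bases before to 30 after the annotated start is shown for 8 genes that span the range of the high glucose response, 5′ to 3′, with the longest run of C or T that begins within 20 bases of the start in capitals. The first 3 stretches belong to core genes with large falls.
Rpl12, chr2:32961652-32961741, plus strand: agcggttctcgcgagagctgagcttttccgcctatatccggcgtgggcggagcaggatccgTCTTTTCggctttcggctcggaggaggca
Rplp0, chr5:115559407-115559496, plus strand: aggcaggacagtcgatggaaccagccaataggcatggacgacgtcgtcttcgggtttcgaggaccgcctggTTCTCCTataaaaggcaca
Rps6, chr4:86857338-86857427, minus strand: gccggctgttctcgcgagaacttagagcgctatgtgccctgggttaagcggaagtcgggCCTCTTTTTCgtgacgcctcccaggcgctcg
The next pair are a parent gene and its paralog, with log2 fold changes in high glucose of -0.38 and -1.38.
Rpl22, chr4:152325666-152325755, plus strand: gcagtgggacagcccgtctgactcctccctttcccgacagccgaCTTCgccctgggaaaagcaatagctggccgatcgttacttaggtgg
Rpl22l1, chr3:28805448-28805537, plus strand: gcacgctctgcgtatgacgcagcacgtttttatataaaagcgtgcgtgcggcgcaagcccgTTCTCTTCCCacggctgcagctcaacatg
The last 3 belong to members with small differences.
Rpl37a, chr1:72711200-72711289, plus strand: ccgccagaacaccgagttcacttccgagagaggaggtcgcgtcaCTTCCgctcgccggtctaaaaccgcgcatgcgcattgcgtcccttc
Rps27l, chr9:66946026-66946115, plus strand: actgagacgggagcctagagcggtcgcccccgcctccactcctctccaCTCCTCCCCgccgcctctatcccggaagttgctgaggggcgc
Rpl7l1, chr17:46782627-46782716, minus strand: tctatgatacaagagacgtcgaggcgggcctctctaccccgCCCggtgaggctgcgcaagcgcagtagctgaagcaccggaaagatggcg
The longest run was 10 bases in Rps6 and Rpl22l1, 9 in Rps27l, 7 in Rpl12 and Rplp0, 5 in Rpl37a, 4 in Rpl22 and 3 in Rpl7l1.

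A run of at least 8 C or T bases that begins within 20 bases of the start on the gene's strand was present in 24 of the 54 core genes (44.4%) and in 16.4% of 10300 other tested genes with a window. The run is a description of the letters near an annotated start and does not show that the transcript begins there. The median log2 fold change in high glucose was -0.86 for the 24 genes with a run and -0.80 for the 30 without. Other motifs were searched on both strands over the whole window, 250 bases before to 50 after the start. CCGGAAG, the core of the site for ETS factors, was in 42.6% of the core genes and 18.1% of the others, and the median was -0.81 with it and -0.83 without it. TATAAA (7.41% against 7.44%), AAGATGGC, a core of the YY1 site (7.41% against 4.66%), and CACGTG, the E box bound by Myc (9.26% against 10.1%), were each in few core genes.

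In control cells the core genes covered a wide range of levels. On the deposited FPKM scale, which is per transcript length, the median of the 77 core genes was 370, with quartiles of 188 and 552. Rplp1 was the highest at 2284 ± 271 FPKM (SD, n = 3), followed by Rplp0 at 2182 ± 203, and these levels do not differ beyond their spread. Both encode acidic or scaffold proteins of the P stalk, the arm of the large subunit that recruits the translational GTPases. Rpl19 (1691 ± 151), Rps15 (1633 ± 167) and Rpl8 (1591 ± 179) came next and overlapped one another. At the low end, Rpl29 stood at 8.72 ± 0.81 FPKM and Rpl21 at 1.28 ± 0.31, while the next lowest core gene, Rps19, was at 68.4 ± 13.6. Beside the low value of Rpl21, 15 rows named as Rpl21 pseudogenes held 257642 counts over the 9 libraries against 2801 on Rpl21 itself. In control the median level was 338 FPKM for core large subunit genes and 382 for core small subunit genes, and the coefficient of variation between control libraries had a median of 9.49%.

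High glucose was compared with control to ask how the cells' RNA changes under this diabetic stimulus. Of 87 genes tested, 82 were called lower and 0 higher with edgeR's quasi-likelihood test (Benjamini-Hochberg adjusted p under 0.05 over 17680 genes), where 19.7% of all genes tested were called lower and 19.6% higher. At an unadjusted p under 0.05, 83 were lower (23.4% of all genes) and 0 higher, and DESeq2 and limma also called 0 higher. The median log2 fold change of the 87 was -0.83, a fall of 1.78-fold, with quartiles of -0.96 and -0.68, against 0.03 over all genes. In 81 of the 87, every high glucose library lay below every control library, which held for 25.8% of all genes tested. Low counts kept 5 members out of the test: Rpl3l, Rpl10l, Rpl39l, Rpl9-ps1 and Rpl36-ps4.

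**Figure D1:**
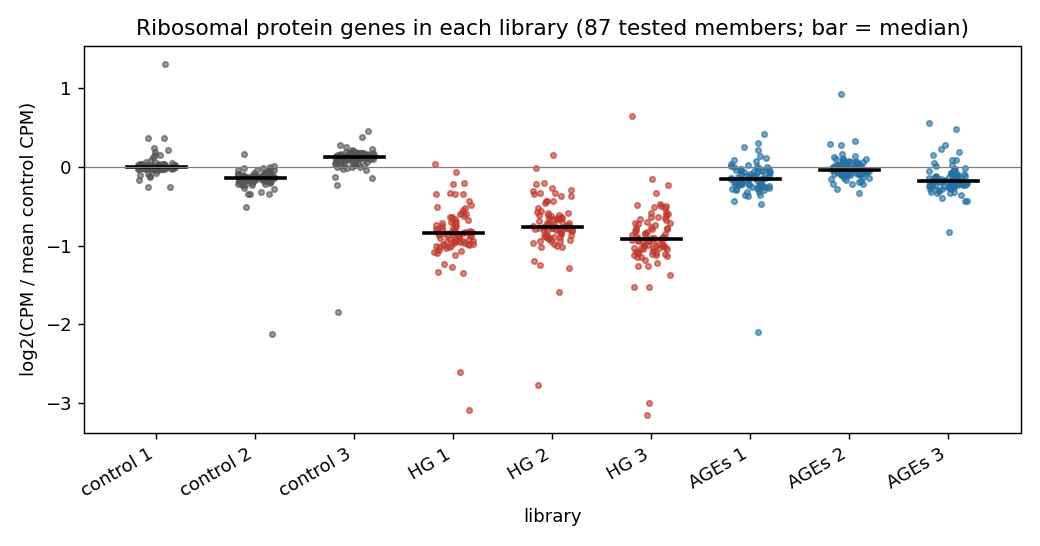
Each point is 1 of the 87 tested genes in 1 library, as log2 of its CPM over its mean control CPM (vertical axis), with libraries along the horizontal axis and a bar at the median. Medians computed instead against the mean of the control log2 CPM were 0.01, -0.14 and 0.12 in control. On that scale the 3 high glucose (HG) medians ran from -0.91 to -0.75 and the 3 AGEs medians from -0.18 to -0.03. The bars drawn can differ slightly from these values.

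The set took 6.90%, 6.38% and 7.46% of all counts in the 3 control libraries. In high glucose it took 4.25%, 4.59% and 4.14%, and in AGEs 6.27%, 6.72% and 6.01%. The high glucose shares lay below every other library, and the AGEs shares overlapped those of control. A share of counts is relative: a fall in it says nothing of the total RNA per cell, which the files do not measure.

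Genes of both subunits fell. In high glucose, 45 of 46 core large subunit genes were called lower with a median log2 fold change of -0.82 (quartiles -0.93 and -0.68), and 29 of 31 core small subunit genes with a median of -0.87 (quartiles -0.97 and -0.76). The ratio of small to large subunit counts was 0.696, 0.689 and 0.689 in control, 0.674, 0.686 and 0.659 under high glucose, and 0.714, 0.703 and 0.661 in AGEs. The high glucose ratios lay just below the control ones in counts, but with summed FPKM in place of counts they ran from 0.612 to 0.620 against 0.606 to 0.619 in control and overlapped. No test of the subunit difference was made, since it is a score over the chosen genes.

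**Figure D2:**
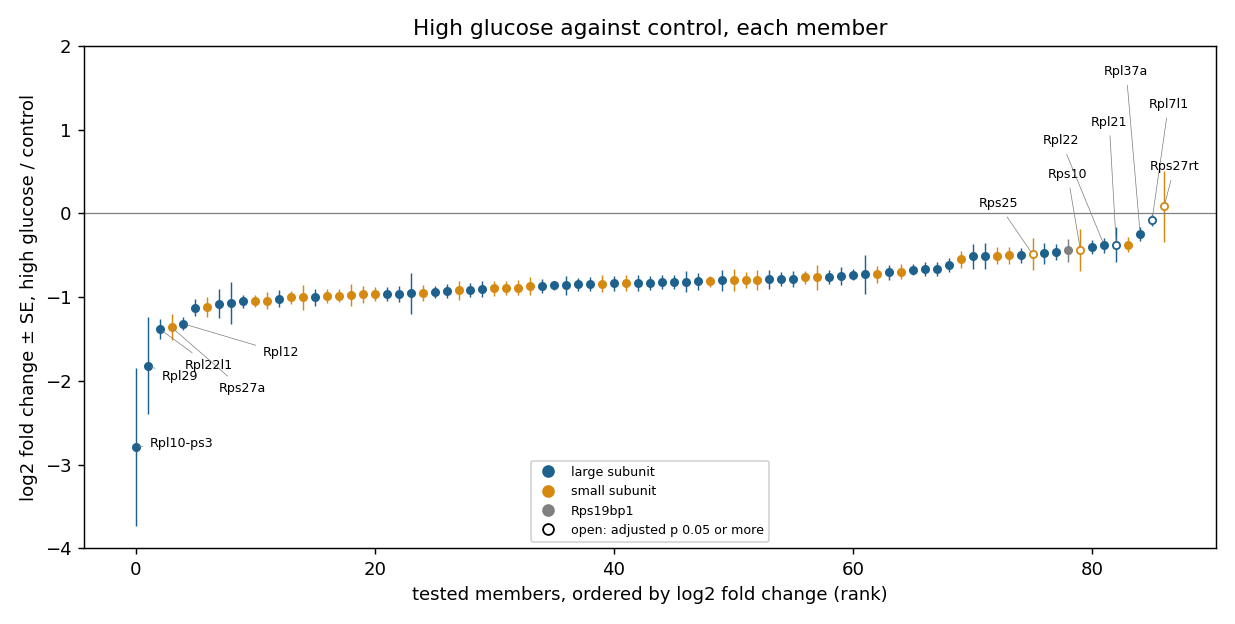
Log2 fold change in high glucose over control (vertical axis, ± SE from edgeR) of the 87 tested genes in order of size (horizontal axis), coloured by subunit, with open circles where the adjusted p was 0.05 or more. The quartiles are -0.96 and -0.68, with genes of both subunits between them, and Rpl10-ps3 at -2.79 and Rps27rt at 0.08 are the extremes.

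All 4 proteins of the P stalk and its base fell in high glucose, with a median log2 fold change of -1.09. Rpl12, which sits at the base of the stalk (ENSMUSG00000038900, chromosome 2, 32961559 to 32965345, GRCm38), had 1539, 1420 and 1654 CPM in control, 610, 645 and 593 under high glucose, and 1382, 1548 and 1404 in AGEs. Its high glucose libraries were far below the other 6, and the log2 fold change was -1.32 ± 0.08 (SE, edgeR adjusted p = 3.58e-06). Rplp0, the scaffold of the stalk, had 4123, 3807 and 4628 CPM in control, 1998, 2125 and 1934 under high glucose, and 3606, 3973 and 3732 in AGEs. Its groups were likewise apart in high glucose, by -1.05 ± 0.08 (adjusted p = 1.58e-05). Rplp1 fell by 1.13 ± 0.11 and Rplp2 by 0.79 ± 0.11 on the log2 scale.

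The remaining large subunit groups fell as well. Near the catalytic centre, Rpl3, Rpl8 and Rpl10, of which Rpl10 joins late in assembly, had log2 fold changes of -0.78, -0.83 and -1.02 (3 of 3 called). All 8 genes for proteins at the exit tunnel were called lower, with a median of -0.84 and a range of -1.08 for Rpl17 to -0.51 for Rpl39. Rpl4, whose loop lines the tunnel, had 2412, 2383 and 2297 CPM in control, 1336, 1267 and 1311 under high glucose, and 2353, 2478 and 2398 in AGEs, with little spread in any group. Rpl5 and Rpl11, which bind the 5S ribosomal RNA and can bind Mdm2, the ubiquitin ligase for p53, both fell. Rpl5 had 1758, 1651 and 1656 CPM in control and 909, 892 and 844 under high glucose (log2 fold change -0.94 ± 0.07). Rpl11 had 559, 513 and 598 CPM in control and 484, 373 and 341 under high glucose (-0.48 ± 0.12, adjusted p = 0.0127), with library 1 the closest to control, and limma on log2(FPKM + 1) did not call it (-0.31, adjusted p = 0.0594).

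Rpl10a, of the mobile L1 stalk, was highest in library 3 of every group. It had 714, 671 and 1164 CPM in control, 353, 372 and 490 under high glucose, and 612, 698 and 999 in AGEs. High glucose still lay below control in every library (log2 fold change -1.07 ± 0.25, adjusted p = 0.00733).

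In the small subunit, the gene for Rps6, the target of the S6 kinases, had 1467, 1378 and 1512 CPM in control, 758, 756 and 658 under high glucose, and 1424, 1441 and 1326 in AGEs. It was 2.01-fold lower in high glucose (edgeR adjusted p = 1.35e-05), with no overlap between the groups. Rps2 and Rps3, at the channel where messenger RNA enters, fell with a median of -0.86. Near the exit of the messenger RNA, Rpsa (log2 fold change -0.97), Rps14 (-0.76), Rps26 (-0.98) and Rps28 (-0.51) fell, and 5 of 6 genes for the head and decoding centre were called lower, the exception being Rps10. Rps27a, which encodes ubiquitin fused to a ribosomal protein, went from 567, 453 and 513 CPM in control to 250, 170 and 178 under high glucose (-1.36 ± 0.16, adjusted p = 0.000151), and its log2 fold change was -1.01 with its pseudogene rows added.

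Of 18 genes in which loss of 1 copy causes Diamond-Blackfan anaemia, a failure of red cell production in people, 17 were called lower in high glucose, with a median log2 fold change of -0.78. That was like the whole set, with 82 of 87 called lower and a median of -0.83, so these genes did not stand out from it. Rps10 was again the one not called. Rps19 fell by 0.80 ± 0.14 and Rps24 by 1.04 ± 0.10 on the log2 scale.

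Beyond the set, Fau and Rack1 encode ribosomal proteins whose names escape the rule, and both were called lower in high glucose. The log2 fold change was -0.82 for Fau and -1.11 for Rack1, a signalling scaffold on the small subunit. A list of 18 other messenger RNAs with a TOP motif had 18 called lower and a median of -0.71. The elongation factor Eef2 (-1.33 ± 0.07) and the nucleolar chaperone Npm1 (-1.55 ± 0.08) had the largest falls of that list, and Nap1l1 (-0.23 ± 0.08) the smallest. Of 8 dedicated chaperones of ribosomal proteins, 6 were called lower and 0 higher, among them Pdcd2, the chaperone of Rps2, at -1.09 ± 0.10. Of 19 genes that control growth and translation, 5 were called lower and 6 higher, beside 19.7% and 19.6% of all genes, with no common direction. Myc, a transcription factor of ribosome production, was at 94.1 ± 12.8 CPM in control and 28.9 ± 1.75 in high glucose (SD, n = 3; -1.70), and the mTOR substrate Eif4ebp1 was at -0.94. Mtor (0.36) and its partner Rptor (0.59) were called higher, and Larp1 was at -0.25 and not called (adjusted p = 0.216).

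Mitochondrial ribosomal proteins, which serve a separate ribosome, had 28 of 78 called lower, 9 higher and a median of -0.22. Over all genes tested 19.7% were called lower and 19.6% higher, with a median of 0.03, so this set leaned lower as well. Across 13532 tested genes with a known length, Spearman's rho of the high glucose log2 fold change with control CPM was -0.36 and Pearson's r was -0.35. Across the 77 core genes rho was -0.37 and r was -0.13. Genes are not independent replicates, and all share the same libraries. Of 452 other genes at or above 308 CPM in control, the lower quartile of the tested ribosomal protein genes, 55.8% were called lower and 12.8% higher, with a median of -0.31. Transcript length separated the core genes little: the median was -0.76 for the 25 genes with transcripts up to 732 bases, -0.85 for the 27 of 733 to 1047 bases, and -0.84 for the 25 longer ones.

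**Figure D3:**
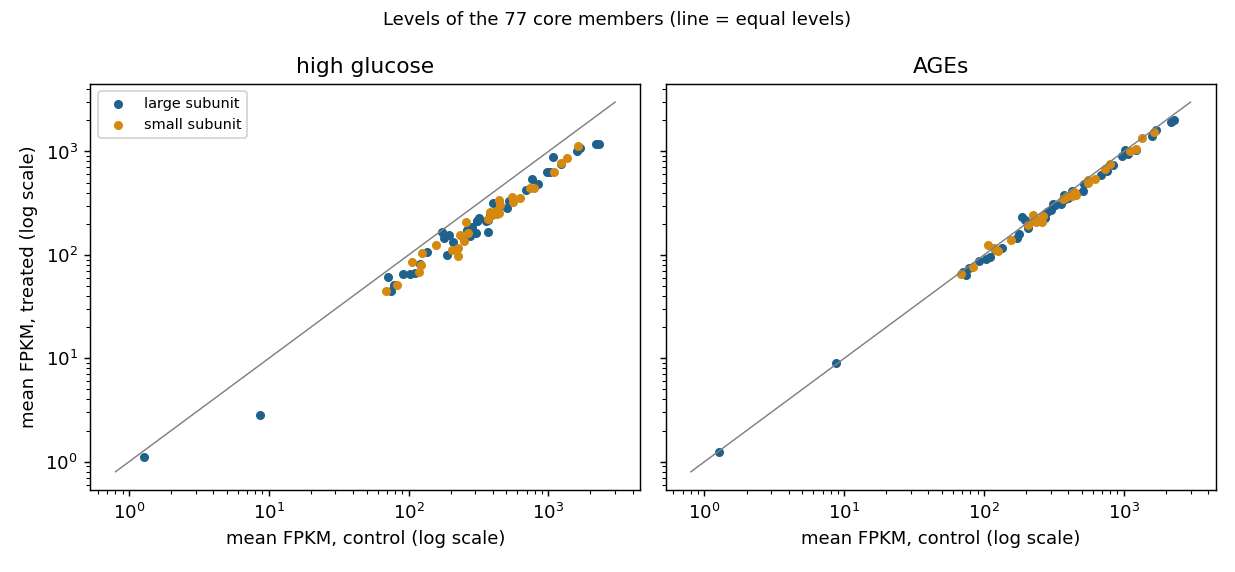
Mean FPKM of the 77 core genes in control (horizontal, log scale) against high glucose (left) and AGEs (right) (vertical, log scale), coloured by subunit, with the line of equal levels. Points lie below the line over the whole range in high glucose and close to it in AGEs.

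A few members departed from the common fall. Rpl7l1, a paralog of Rpl7, had 190, 187 and 199 CPM in control, 183, 190 and 174 under high glucose, and 189, 183 and 167 in AGEs (log2 fold change in high glucose -0.08 ± 0.07, edgeR adjusted p = 0.45). Its high glucose and control libraries overlapped. Rpl37a had 283, 252 and 313 CPM in control, 244, 245 and 225 under high glucose, and 232, 252 and 241 in AGEs. Its fall of 0.25 ± 0.09 on the log2 scale was just called (adjusted p = 0.0457), and was lost in 12 alternatives, among them those without control library 1 (-0.25, adjusted p = 0.105), without control library 3 (-0.17, 0.142), and without high glucose library 1 (-0.27, 0.0779), 2 (-0.27, 0.0791) or 3 (-0.21, 0.139). Rpl22 (-0.38 ± 0.09), Rps27l (-0.37 ± 0.10), Rpl36al (-0.40 ± 0.09) and Rpl41 (-0.46 ± 0.09) were called lower by small amounts. Limma on log2(FPKM + 1) called none of these 4, with -0.21 for Rpl22 (adjusted p = 0.0965), -0.19 for Rps27l (0.117), -0.23 for Rpl36al (0.0577) and -0.28 for Rpl41 (0.0537).

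Rps10 and Rps25 were not called, and the call depended on which libraries were kept. Rps10 had 339, 288 and 381 CPM in control and 195, 375 and 175 under high glucose, so that high glucose library 2 stood with control (log2 fold change -0.44 ± 0.25, adjusted p = 0.206). Without that library the log2 fold change was -0.86 (adjusted p = 0.00126). Rps25, needed for initiation at some viral internal entry sites, had 430, 262 and 302 CPM in control and 184, 285 and 240 under high glucose (-0.49 ± 0.19, adjusted p = 0.0757). Without control library 2 it was at -0.63 (adjusted p = 0.0371), without high glucose library 2 at -0.64 (0.041), and DESeq2 called it (-0.48, 0.0371). Trappc4, on the opposite strand to Rps25, held 11.2% as many counts, and no source used here gives the strand setting of the counting.

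Several other calls were lost when a single library was left out. Rpl10-ps3, a copy of Rpl10, had 101, 9.33 and 11.3 CPM in control and 6.64, 5.91 and 5.06 under high glucose, with control library 1 far above the rest. Its log2 fold change of -2.79 ± 0.95 (adjusted p = 0.0418) was -0.82 without that library (adjusted p = 0.327), and the call was also lost without high glucose library 1 (-2.89, 0.0983), 2 (-2.80, 0.105) or 3 (-2.69, 0.115), with a replicate block (-2.34, 0.138) and in limma on log2(FPKM + 1) (-1.64, 0.171). Rpl29 had 11.4, 10.2 and 12.5 CPM in control, 1.33, 7.17 and 1.27 under high glucose, and 11.5, 12.4 and 11.4 in AGEs. High glucose library 2 stood well above the other 2 of its group. Its fall of 1.82 ± 0.58 on the log2 scale (adjusted p = 0.0321) was -3.13 without that library. Dropping control library 1 (-1.82, adjusted p = 0.067), 2 (-1.89, 0.0577) or 3 (-1.75, 0.0747), or high glucose library 1 (-1.44, 0.0855) or 3 (-1.43, 0.0809), ended the call, as did fitting only the 2 groups compared (-1.82, 0.0614). The falls of Rpl39, a protein of the exit tunnel, and Rpl7a were each called with an adjusted p of 0.0192 and 0.026. Both calls were lost without control library 1 (Rpl39 -0.47, Rpl7a -0.40) or 3 (-0.41, -0.49), and without high glucose library 1 (-0.51, -0.38) or 3 (-0.45, -0.52). Limma on log2(FPKM + 1) called neither (adjusted p = 0.113 for Rpl39 and 0.122 for Rpl7a), and the fit with a replicate block did not call Rpl7a (-0.51, 0.0515). Rps19bp1 (-0.44 ± 0.14) was no longer called without control library 3 (-0.28) or high glucose library 2 (-0.43) or 3 (-0.40), nor by limma (adjusted p = 0.134). Rps27rt, a retrocopy of Rps27, varied widely within each group, from 26.3 to 70.4 CPM in high glucose, and was at 0.08 ± 0.43.

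Counts were shared between many core genes and pseudogene rows of the same name. For 61 of the 92 members the table holds at least 1 such row, and for 22 core genes these rows held over 10% of the joint counts. In 4 core genes (Rps12, Rpl7a, Rpl17 and Rpl21) the pseudogene rows held more counts than the gene. Near-identical copies cannot be told apart in these counts, so the joint value was also tested. For Rpl21 alone the log2 fold change in high glucose was -0.37 ± 0.21 (adjusted p = 0.186), and with its 15 pseudogene rows added -0.97 ± 0.14 (adjusted p = 0.0005). Rps10 was called when its 4 pseudogene rows were added (-0.58 ± 0.17, adjusted p = 0.0236), and those rows, unlike the gene, had a like level in all 3 high glucose libraries (200, 220 and 201 CPM). Genes that overlap a core gene are a further limit: Ube2s, on the opposite strand to Rpl28, held 33.6% as many counts, Ndst1 opposite Rps14 21.1%, and Gm27597 on the strand of Rpl19 18.8%. The joint log2 fold changes of Rps12 (-1.11), Rpl17 (-1.01) and Rpl7a (-0.69) were on the same side as those of the gene rows (-1.12, -1.08 and -0.51).

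**Figure D4:**
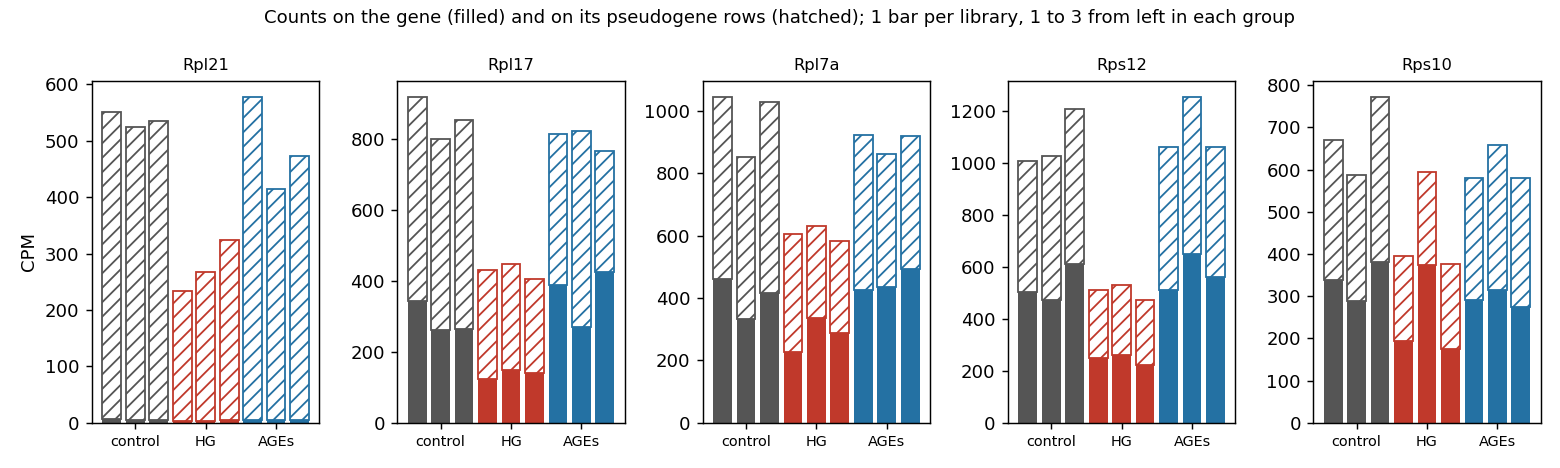
CPM on the gene row (filled) and on its pseudogene rows (hatched, stacked) for 5 genes (panels), with 1 bar per library, numbered 1 to 3 from the left within each group. The stacked bars are lower in high glucose (HG) than in control for all 5 genes except Rps10 in high glucose library 2, where the filled part reaches 375 CPM.

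Of the 7 named paralogs, 4 had enough counts to be compared with their parent gene, and in all 4 the ratio to the parent stood apart from control in high glucose. Separation was common for single genes: every high glucose library lay below every control library in 25.8% of all genes tested. No such share was computed for ratios of other gene pairs. Rpl22l1, the paralog of Rpl22 (ENSMUSG00000039221, chromosome 3, 28805436 to 28807424, GRCm38), had 148, 120 and 133 CPM in control, 52.6, 55.0 and 46.6 under high glucose, and 128, 132 and 102 in AGEs. Its own fall was 1.38 ± 0.12 on the log2 scale (edgeR adjusted p = 3.39e-05), beside 0.38 for its parent. Its counts were 60.1%, 52.7% and 54.1% of those of Rpl22 in control, 27.7%, 28.7% and 27.4% under high glucose, and 53.7%, 52.3% and 49.7% in AGEs. The log2 ratio differed by -0.99 between high glucose and control, with no overlap. The other 3 ratios were higher, not lower, in high glucose. In these pairs the parent fell more than the paralog, and no paralog rose. The log2 fold changes were -0.81 for Rpl7 and -0.08 for Rpl7l1, and -0.76 for Rps27 and -0.37 for Rps27l. They were -0.75 for Rpl36a and -0.40 for Rpl36al.

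Counts of Rpl7l1 were 15%, 15.3% and 12.8% of those of Rpl7 in control, 25%, 24.9% and 21.4% under high glucose, and 14.7%, 14.4% and 14.3% in AGEs. Rps27l, a known target of p53, was at 17.8%, 19.7% and 18% of Rps27 in control, 24.3%, 21.6% and 27.8% under high glucose, and 19.4%, 20.1% and 19.5% in AGEs. Rpl36al was at 92.8%, 98.7% and 103% of Rpl36a in control, 122%, 128% and 122% under high glucose, and 103%, 101% and 117% in AGEs. In log2 these ratios were higher in high glucose than in control by 0.73, 0.40 and 0.34, with no overlap in any of the 3 pairs.

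Each of the 4 high glucose differences had p = 0.1 in a two-sided exact permutation test, the smallest that 3 libraries against 3 allow, and 0.15 after Benjamini-Hochberg adjustment over 12 tests, so none can pass 0.05 in this design. In AGEs all 4 ratios overlapped control, with log2 differences of 0.02 to 0.12 for 3 pairs and -0.10 for Rpl22l1. The other 3 paralogs were barely counted. Rpl3l, a gene of striated muscle, had 0 to 15 counts per library, and Rpl10l and Rpl39l, genes of the testis, had 0 counts in all 9 libraries.

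**Figure D5:**
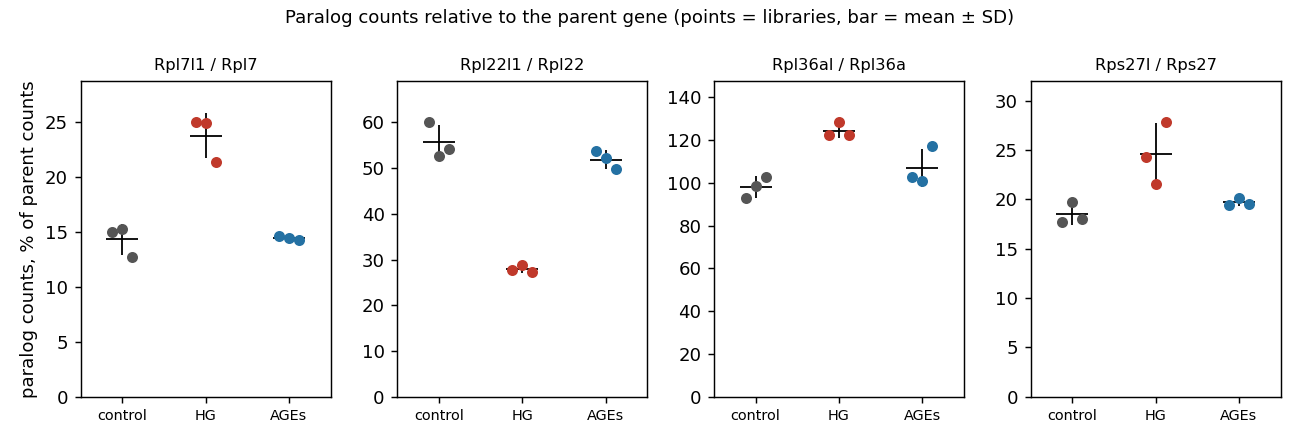
Counts of 4 paralogs as a percent of the counts of their parent gene (vertical axis, not corrected for length), by group (horizontal axis), with 1 point per library and a bar at the mean ± SD. High glucose (HG) stands apart from both other groups in every panel, below them for Rpl22l1 and above them for the other 3 paralogs.

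Cells given AGEs were compared with the same control libraries, so the 2 comparisons with control are not independent. With edgeR 0 of the 87 tested genes were called in either direction, where 0.0339% of all genes were called lower and 0.0509% higher. At an unadjusted p under 0.05, 12 were lower and 0 higher, beside 5.92% lower and 6.46% higher over all genes. DESeq2 called 0 (8 at an unadjusted p under 0.05), and limma called 0 (13). The number at an unadjusted p under 0.05 depended on single libraries: it was 5, 25 and 0 without control library 1, 2 and 3, and 1, 15 and 3 without AGEs library 1, 2 and 3, with 0 called each time. The median log2 fold change was -0.11 (quartiles -0.17 and -0.06), against 0.00 over all genes tested, with 75 of 87 below 0. Control library 2 lay as low: the median over the 87 genes, relative to the control mean, was -0.14 there and -0.14, -0.03 and -0.18 in AGEs. In 6 of the 87 every AGEs library lay below every control library, against 9.73% of all genes. Core genes with transcripts of 345 to 732 bases had a median of -0.14, beside -0.12 for all 361 tested genes of those lengths. At 733 to 1047 bases the medians were -0.13 and -0.12 (624 genes), and at 1049 to 5179 bases -0.08 and -0.02 (10228 genes).

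Rps21, a small subunit protein, had the lowest log2 fold change in AGEs, from 243, 212 and 273 CPM in control to 188, 212 and 196 (-0.29 ± 0.10, unadjusted p = 0.0164, edgeR adjusted p = 0.334). Its libraries met at 212 CPM. Rpl13a, known from a complex that silences inflammatory transcripts, went from 1229, 1091 and 1398 CPM to 1034, 987 and 1070 (-0.27 ± 0.10, adjusted p = 0.351), and Rpl10 was at -0.24 ± 0.10 (adjusted p = 0.396). At the other end, Rpl17 was at 0.32 ± 0.17 (adjusted p = 0.469) on its gene row and at -0.10 with its pseudogene rows added. The P stalk genes ran from -0.18 to -0.09, and 0 of the 18 other TOP messenger RNAs were called (median -0.05).

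AGEs were compared with high glucose as the pair of stimuli. The libraries of both groups also served in the comparisons with control, so this comparison is not independent of those. Of the 87 tested genes, 76 were called higher in AGEs and 0 lower (edgeR), where 19.7% of all genes were called higher and 20.2% lower. At an unadjusted p under 0.05, 80 were higher (23.5% of all genes) and 0 lower, and DESeq2 called 0 lower. The median log2 fold change was 0.72, and in 81 genes every AGEs library lay above every high glucose library, against 25.2% of all genes. Of the 452 other genes at or above 308 CPM in control, 55.5% were called higher and 11.1% lower, with a median of 0.34. With paralogs and retrocopies included, large and small subunit medians were 0.71 (46 of 52 called) and 0.76 (30 of 34 called). For core genes alone they were 0.70 (42 of 46 called) and 0.76 (29 of 31 called). Rpl10-ps3 (2.63, adjusted p = 0.0506, not called) and Rpl29 (1.87, adjusted p = 0.0282) had the highest values, and Rpl29 dropped out of the calls without high glucose library 1 (adjusted p = 0.0764) or 3 (0.0705) or without AGEs library 1 (0.0558), 2 (0.0621) or 3 (0.0533), at log2 fold changes of 1.49 or more. On the gene rows Rpl17 was at 1.40, Rps27a at 1.34, Rps12 at 1.24, and Rpl12 and Rpl22l1 at 1.23. With pseudogene rows added Rpl17 was at 0.91 and Rps27a at 0.93. The 11 genes not called included Rpl37a (0.02, adjusted p = 0.871) and Rps21 (0.21, adjusted p = 0.115), for which AGEs and high glucose had like levels.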

How the data were processed

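Gene-level values of 9 libraries were analysed: integer read counts and FPKM values, both deposited by the authors in 1 table on build GRCm38. Per the submitters' processing notes, reads were trimmed with cutadapt 1.9 and checked with FastQC; no source used here gives the aligner, counter or strand setting. The deposited counts were tested with edgeR 4.0.16 (filterByExpr, TMM scaling, quasi-likelihood F test, 1 model of 3 group means, Benjamini-Hochberg over 17680 genes of 55385, called at adjusted p under 0.05). CPM values were computed from the counts with TMM library sizes. FPKM, per the file headers, served for levels between genes and for limma 3.58.1 on log2(FPKM + 1) and log2(FPKM + 0.1), over genes with a mean FPKM of at least 0.1. DESeq2 1.42.0 was an alternative. The edgeR script was tested on simulated data. Paralog ratios used an exact permutation test with at least 10 counts a library.

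The members and lists were chosen with earlier results of these data known. Named genes were the 6 lowest and 6 highest of each comparison, genes of named roles, the paralogs and their parents, and the extremes of level. Promoters came from RefSeq. Values of a few listed genes are not reported here.

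Same-numbered libraries of different groups were compared by the correlation of their deviations from the group means. Alternatives were other scaling, other filters, only the groups compared, pseudogene counts added, a replicate block, and each library left out.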

Additional observations from a re-analysis of the deposited data

How the results depend on the processing

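Of the 82 falls in high glucose, 70 were called in every alternative and 12 were lost in at least 1; for AGEs over high glucose 64 of 76 were called in every alternative. The count of falls ran from 72 (limma on log2(FPKM + 1)) to 84, and from 75 to 81 with a library left out. The count higher in AGEs than in high glucose ran from 67 to 78, and from 70 to 76 with a library left out. AGEs against control gave 0 calls throughout. No value past its threshold changed direction. In limma on log2(FPKM + 1) and log2(FPKM + 0.1), 1 gene, Rpl7l1, was called lower in AGEs than in high glucose. Limma on log2(FPKM + 0.1) moved the median of all genes in high glucose by 0.13, and the median of the members was then -0.65, or -0.81 relative to all genes. With pseudogene counts added, the members' share of counts was 7.52% for control, 4.70% for high glucose and 6.88% for AGEs. With summed FPKM the log2 ratio of small to large subunit differed by 0.010 between high glucose and control. With a replicate block, 79 members were called lower in high glucose and 0 were called in AGEs against control. In the same fit 75 were higher in AGEs than in high glucose. Same-numbered libraries correlated at -0.067 to 0.084 in their deviations. A correlation over all tested genes cannot settle whether the numbers pair the libraries, and the titles state no pairing. Rpl3l, Rpl10l and Rpl39l had too few counts to test, and the 3 libraries a group limit the paralog tests.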
